A study of Mus musculus with 3 samples.

Results

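The genes described here encode the machinery that licenses replication origins and copies DNA, and the enzymes that supply its nucleotides. They are 47 genes named by symbol, chosen with earlier results of these data known. All 47 were found among the 50600 genes of the deposited tables. The tables hold 3 total RNA-seq libraries of primary T cells from C57BL/6NJ mice, numbered 2, 3 and 4 as biological replicates of a single group. The labels give no sex, an unknown age, a CD4+ T cell differentiation protocol and a donor identifier that the 3 libraries share. They name no treatment, and their library protocol is one for poly(A)+ RNA. The names of the alignments in the file headers carry Th0, activated and 0 hours. With no second group, the data give the level of each gene and its spread among libraries. P-values rest on differences between these libraries alone, and part of those may be technical. Replicate 2 differed from replicates 3 and 4 in sex-linked RNA, as given below.

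An origin is licensed when the origin recognition complex, Cdc6 and Cdt1 load the MCM2-7 helicase on DNA in G1. Cdc45, the GINS complex and Mcm10 then help turn the loaded helicase into a moving one, and primase, the polymerases, the sliding clamp and its loader copy the strands. Many of these genes are targets of E2F transcription factors, and T cells that leave quiescence raise many of them. In bulk RNA, fewer cells with a transcript and less transcript per cell cannot be told apart.

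Total counts were 47432940, 59698913 and 28340521 in replicates 2, 3 and 4, of which the 47 genes took 0.228%, 0.218% and 0.215%. Levels are given in TPM, counts divided by the exon length of the gene and scaled so that all genes of a library sum to the same total. T cell markers were high, with Cd3e at 519 ± 14.3 TPM (SD, n = 3) and Cd4 at 1044 ± 24.6 TPM, and the summed level of 6 T cell markers lay between 7767 and 7917 TPM. Of the CD8 markers, Cd8a stood at 0.534 ± 0.182 TPM and Cd8b1 at 33.6 ± 2.999 TPM. Markers of other cells were lower than those of T cells. The sum of 5 B cell markers was 43.6, 48.6 and 34.1 TPM in replicates 2, 3 and 4, that of 4 erythroid markers 5.35, 1.88 and 1.20 TPM, and that of 4 myeloid markers 2.59, 4.09 and 3.47 TPM. Of 4 thymocyte markers, Rag1 and Rag2 had 0 counts and Ptcra had at most 5 in a library, while Dntt had 30.8, 22.2 and 27.3 TPM. The part of such cells in the levels of the replication genes was not tested. Replicate 2 stood apart in sex-linked genes, with Xist at 151 TPM against 0.221 and 0.399 TPM in replicates 3 and 4, and Ddx3y at 0.248 TPM against 80.0 and 72.3 TPM. These libraries thus differ in sex-linked RNA although the labels give them a common donor identifier. Without replicate 2 the counts of genes by level given next, 42, 32 and 5, were the same, all 9 pairs kept their sign, and none of the 47 genes passed the test of variation.

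The replication genes divided widely by level. Of the 47, 42 reached 1 TPM in all 3 libraries, which 46.1% of 21764 protein-coding genes and 23.4% of all genes did. At 10 TPM or more in every library stood 32 of 47, against 35.6% of protein-coding genes and 16.4% of all genes. These 32 are called kept. Another 10 lay between, and 5 were under 1 TPM in at least 1 library, against 53.9% of protein-coding genes and 76.6% of all genes. The 5 were Mcm10, Orc1, Cdc6, Tk1 and Gins2, and they are called near-floor genes. The median over the 47 genes was 20.2 ± 0.273 TPM (SD, n = 3), below the 33.4 TPM of the median protein-coding gene at 1 TPM or more, which 15 of the 47 exceeded. The 47 include the 5 near-floor genes, while the protein-coding set leaves such genes out, which widens the gap. The genes just above the 10 TPM line were Gins3, whose lowest library had 10.5 TPM, and Rrm1, at 10.6 TPM in its lowest. Just below it were Gmnn, at 9.25 TPM in its lowest library, and Ung, at 9.01 TPM. Gins2 crossed the 1 TPM line, with 1.08 TPM in replicate 2 and 0.528 TPM in replicate 3, and the next gene above it, Gins1, had 1.80 TPM in its lowest library.

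**Figure D1:**
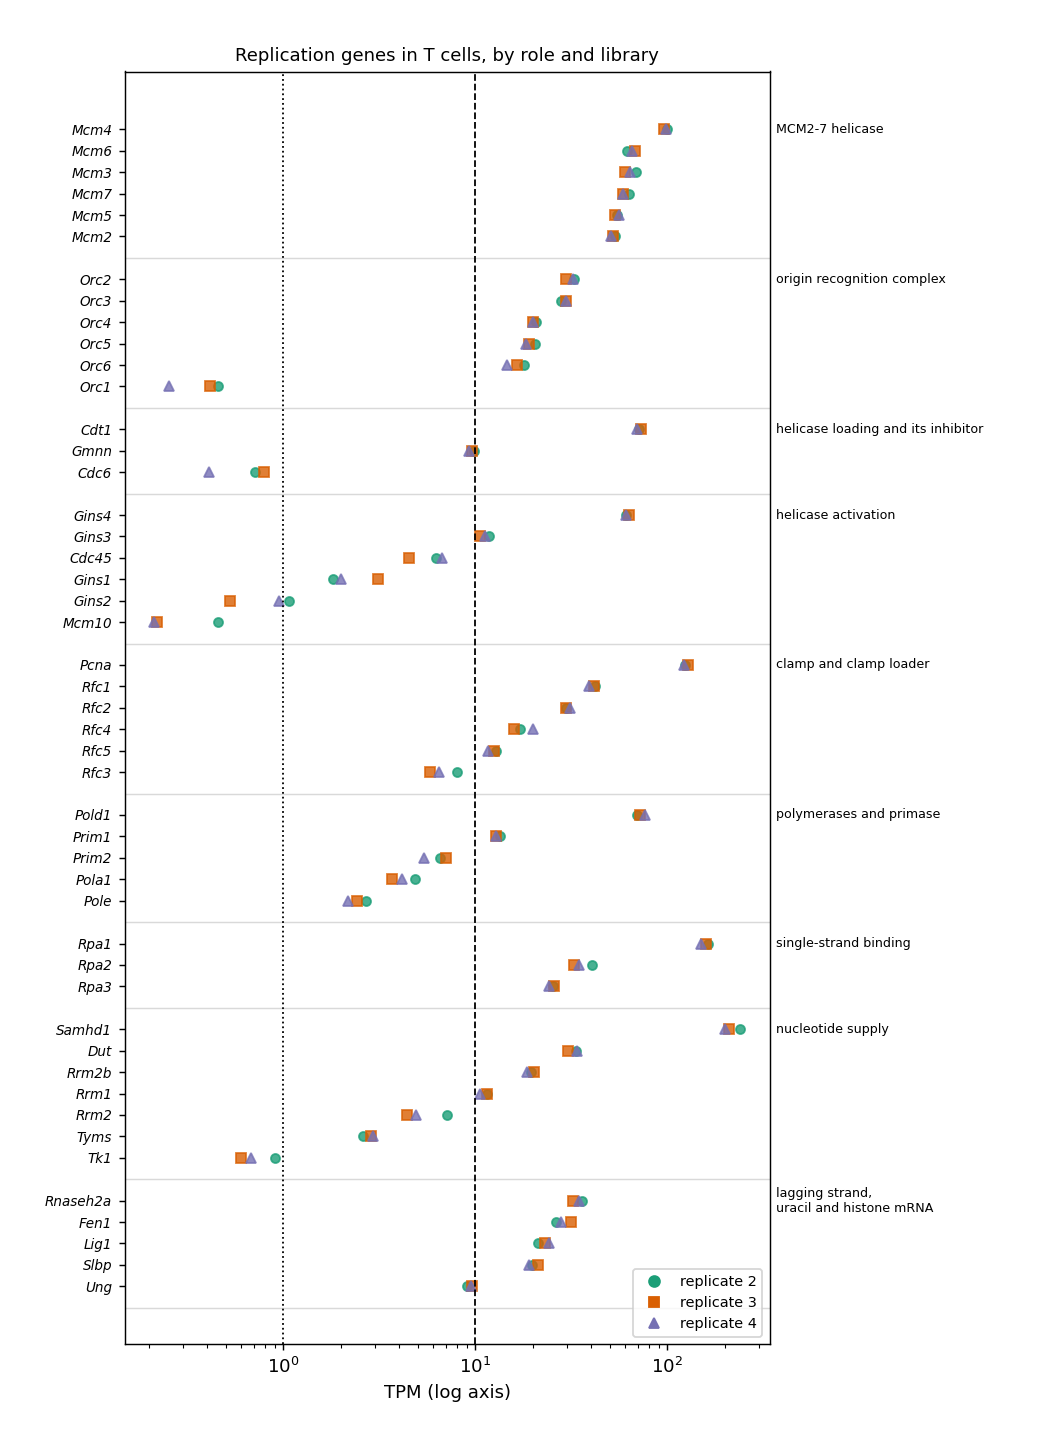
Level of each of the 47 replication genes in TPM (log axis) in replicates 2, 3 and 4, grouped by role and ordered by mean within a role. The dotted line marks 1 TPM and the dashed line 10 TPM. The MCM2-7 genes sit together between 50.6 and 99.96 TPM, while the origin recognition complex and the helicase activation group each span both lines.

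The near-floor genes were all above 3 counts, the limit that a count of 0 allows. Mcm10 had 87 counts over the 3 libraries, Orc1 52, Gins2 125, Cdc6 135 and Tk1 142. For Orc1 that limit amounts to 0.0228 TPM over the pooled libraries. The Orc1 level rested on 7 counts in replicate 4.

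The promoter windows of 6 genes are shown because they belong to partners in a single step at different levels, Cdt1 with Cdc6, Orc3 with Orc1 and Rrm1 with Rrm2. Each is a 300 base window that begins 250 bases before the start given by RefSeq (GRCm38.p6, the mm10 assembly), printed 5′ to 3′ on the coding strand. Capitals mark the E2F core, searched as TTGGCGC or TTGCCGC or else TTCGCGC or TTCCCGC, on either strand. The windows lie at chr8:122567765-122568064 (plus strand) for Cdt1, chr11:98907901-98908200 (plus) for Cdc6, chr4:34614893-34615192 (minus) for Orc3, chr4:108579204-108579503 (plus) for Orc1, chr7:102441445-102441744 (plus) for Rrm1 and chr12:24708004-24708303 (plus) for Rrm2.
Cdt1: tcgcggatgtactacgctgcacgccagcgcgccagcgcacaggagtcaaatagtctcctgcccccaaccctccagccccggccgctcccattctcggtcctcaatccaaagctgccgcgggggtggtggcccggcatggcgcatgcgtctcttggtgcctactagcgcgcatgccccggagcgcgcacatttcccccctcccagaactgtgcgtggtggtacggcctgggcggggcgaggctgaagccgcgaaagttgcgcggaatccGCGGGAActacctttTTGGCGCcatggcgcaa
Cdc6: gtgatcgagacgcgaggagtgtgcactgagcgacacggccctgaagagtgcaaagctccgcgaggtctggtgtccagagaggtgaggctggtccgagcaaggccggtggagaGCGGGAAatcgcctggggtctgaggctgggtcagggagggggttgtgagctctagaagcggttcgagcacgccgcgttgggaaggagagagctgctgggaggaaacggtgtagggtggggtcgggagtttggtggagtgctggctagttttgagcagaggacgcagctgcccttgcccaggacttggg
Orc3: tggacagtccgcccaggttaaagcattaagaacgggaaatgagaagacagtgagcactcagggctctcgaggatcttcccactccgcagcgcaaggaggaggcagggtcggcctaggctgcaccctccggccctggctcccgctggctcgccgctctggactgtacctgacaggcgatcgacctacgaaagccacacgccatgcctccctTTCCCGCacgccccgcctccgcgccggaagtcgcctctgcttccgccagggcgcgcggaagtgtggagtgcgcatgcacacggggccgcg
Orc1: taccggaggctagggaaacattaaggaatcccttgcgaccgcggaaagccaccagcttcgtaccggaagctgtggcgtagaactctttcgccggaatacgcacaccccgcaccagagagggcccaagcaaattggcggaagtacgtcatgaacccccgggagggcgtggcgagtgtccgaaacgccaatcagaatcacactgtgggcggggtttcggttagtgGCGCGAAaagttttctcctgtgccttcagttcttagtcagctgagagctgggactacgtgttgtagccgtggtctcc
Rrm1: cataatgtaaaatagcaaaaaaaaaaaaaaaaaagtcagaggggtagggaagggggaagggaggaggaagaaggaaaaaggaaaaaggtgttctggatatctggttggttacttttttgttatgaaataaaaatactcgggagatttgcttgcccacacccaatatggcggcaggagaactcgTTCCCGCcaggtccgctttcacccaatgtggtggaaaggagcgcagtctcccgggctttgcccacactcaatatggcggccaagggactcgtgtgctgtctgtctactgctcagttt
Rrm2: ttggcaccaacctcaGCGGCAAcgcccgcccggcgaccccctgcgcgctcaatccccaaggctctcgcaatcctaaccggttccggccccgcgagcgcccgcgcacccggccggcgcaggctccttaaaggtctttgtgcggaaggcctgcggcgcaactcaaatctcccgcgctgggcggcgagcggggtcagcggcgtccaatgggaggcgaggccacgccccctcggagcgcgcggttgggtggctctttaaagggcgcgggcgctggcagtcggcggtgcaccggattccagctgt
With the start base counted as 0, the Cdt1 window holds matches at 18 to 24 and at 33 to 39, and the Cdc6 window at -138 to -132. The Orc3 match lies at -40 to -34 and that of Orc1 at -27 to -21. Rrm1 has its match at -67 to -61 and Rrm2 at -235 to -229. The starts used for Cdt1 and Rrm1 are also the outermost annotated ends of these genes, and those used for Orc1, Orc3, Cdc6 and Rrm2 are not. The 6 windows shown are a choice, with Orc3 in place of Orc2, the partner set against Orc1 below. All 6 hold the core, which other genes compared in pairs do not share: the windows of Orc2, Mcm2, Mcm10, Dut, Tyms and Samhd1 hold no match.

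Over all members, windows were given for 38 of 47 genes, all but Gins1, Gins2, Gins4, Gmnn, Mcm4, Pole, Prim2, Rfc2 and Rrm2b. The E2F core was present for 22 of these 38 genes (57.9%), against 10.9% of 27025 genes with a window and 20.1% of 8045 protein-coding genes at 1 TPM or more. By level it was present for 17 of 28 kept genes, 3 of 6 between 1 and 10 TPM and 2 of 4 near-floor genes, Cdc6 and Orc1. The most matches were in Mcm6 with 5, Pola1 with 4, and Mcm3, Mcm5 and Mcm7 with 3 each. The CCAAT box, a site of the factor NF-Y, was present for 24 of 38 genes, against 41.1% of all genes with a window and 43.5% of the protein-coding genes at 1 TPM or more. The CHR element, searched as TTTGAA on either strand and known from late cell cycle genes, was present for 4 of 38 genes, Mcm2, Gins3, Cdc45 and Fen1 (10.5%), against 20.2% of all genes with a window and 13.7% of the protein-coding genes at 1 TPM or more. The members' windows had a median of 21 CpG, the same as the 21 of the protein-coding genes at 1 TPM or more and above the 7 of all windows. These matches describe the letters of the windows and are not binding sites.

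The MCM2-7 helicase genes were all kept, in a narrow band. Mcm4 had 99.96, 96.0 and 98.6 TPM in replicates 2, 3 and 4, and Mcm2 had 53.2, 52.2 and 50.6 TPM. The highest mean was 1.89 times the lowest, where the proteins form a hexamer with a copy of each. Between them stood Mcm6 at 65.0 ± 3.21 TPM, Mcm3 at 64.3 ± 4.39 TPM, Mcm7 at 60.1 ± 2.62 TPM and Mcm5 at 54.5 ± 1.26 TPM. Mcm6 and Mcm3 did not differ beyond their spread, with a log2 difference of 0.02 ± 0.17 and Mcm6 higher in 2 of 3 libraries. The order within the helicase depends on gene length. With the length of the principal transcript in place of all exons, Mcm2 was the highest at 74.3 TPM and Mcm5 the lowest at 44.6 TPM.

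The origin recognition complex was kept except for Orc1. Orc2 stood at 31.5 ± 1.62 TPM, Orc3 at 29.1 ± 0.943 TPM, Orc4 at 20.2 ± 0.340 TPM, Orc5 at 19.2 ± 1.13 TPM and Orc6 at 16.3 ± 1.74 TPM. Orc1, the largest subunit, whose protein in human cells is degraded after origin licensing and remade in the next cycle, had 0.458, 0.414 and 0.252 TPM. Every library of Orc1 was below every library of the other subunits. Orc2 exceeded Orc1 by 6.08 ± 0.37 on the log2(TPM + 0.1) scale, and the ratio of pooled counts per base was 79.0, with a 95% exact binomial interval from 60.1 to 106, which covers counting error only. Orc2 and Orc3 did not differ beyond their spread. Orc3 is the higher of them, at 53.4 TPM, when the principal transcript sets the length.

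The loading factors stood at opposite ends. Cdt1, which brings the helicase to the origin, had 71.2, 72.7 and 69.5 TPM, and Cdc6, the ATPase that works with it, had 0.712, 0.793 and 0.408 TPM. Geminin, the Cdt1 inhibitor encoded by Gmnn, had 9.85, 9.55 and 9.25 TPM. Gmnn was thus below Cdt1 in every library, by 2.88 ± 0.04 on the log2 scale (Gmnn minus Cdt1, -2.88), with a Gmnn to Cdt1 ratio of 0.134 (0.123 to 0.146). Orc2 exceeded Cdc6 by 5.46 ± 0.47, a ratio of 45.7 (38.5 to 54.7), which was 24.2 with principal transcript lengths. Cdc6 has a processed pseudogene, Gm9430, with 95.2% identity over 1528 bases and 0 counts. Reads that align to both make the Cdc6 count, and so this ratio, uncertain.

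Helicase activation had the lowest median of the 9 role groups, at 4.05 ± 0.269 TPM. The 4 subunits of the GINS complex, which are present in equal number in the protein, differed widely. Gins4 had 60.7, 62.9 and 60.9 TPM and Gins3 had 11.7, 10.5 and 11.3 TPM. Gins1 had 1.80, 3.09 and 1.99 TPM and Gins2 had 1.08, 0.528 and 0.949 TPM, so Gins1 was highest in the library where Gins2 was lowest. Gins4 exceeded Gins2 by 6.07 ± 0.51 on the log2 scale, a ratio of 76.4 (63.9 to 92.1). Of the Gins2 exon bases, 67.3% overlap Gse1 on the opposite strand, and counting was by strand. Cdc45, which joins the helicase with GINS, had 6.24, 4.51 and 6.68 TPM. Mcm10, which promotes helicase activation and is not a subunit of the hexamer, had 0.454, 0.219 and 0.212 TPM. Its mean of 0.295 TPM was the lowest of all 47 genes, but Orc1, at 0.300 TPM, was below it by principal transcript length, where Mcm10 had 0.323 TPM. Mcm2 exceeded it by 7.10 ± 0.44, a ratio of 174 (141 to 218), which was 228 with principal transcript lengths.

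**Figure D2:**
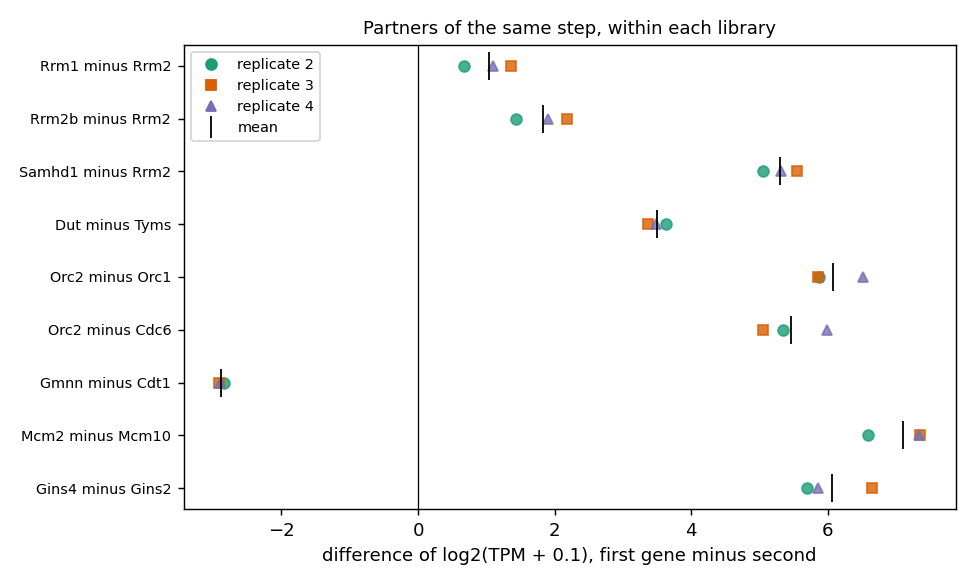
Difference of log2(TPM + 0.1) between the genes of each pair, first gene minus second, in replicates 2, 3 and 4, with the mean as a bar. Mcm2 and Mcm10, and Orc2 and Cdc6, belong to different role groups. All 9 pairs keep their sign in 3 of 3 libraries, from -2.88 for Gmnn minus Cdt1 to 7.10 for Mcm2 minus Mcm10. The pairs were chosen with earlier results of these data known.

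The clamp and its loader were kept except for Rfc3. Pcna, the sliding clamp, had 123, 128 and 122 TPM. Rfc1, the large subunit of the loader, stood at 40.7 ± 1.67 TPM, Rfc2 at 30.1 ± 0.836 TPM, Rfc4 at 17.7 ± 2.09 TPM and Rfc5 at 12.3 ± 0.583 TPM, and Rfc3 at 6.78 ± 1.14 TPM. All 3 subunits of replication protein A, which coats single-stranded DNA, were kept. Rpa1 had 163, 159 and 150 TPM, Rpa2 stood at 35.9 ± 4.28 TPM and Rpa3 at 25.1 ± 0.722 TPM. Pcna has a processed pseudogene, Pcna-ps2, with 99.2% identity over 781 bases and 82 counts, so the Pcna count is uncertain by reads that align to both. Stretches of 95% identity or more over at least 200 bases in another gene were found for 9 of the 47 genes. Besides Pcna they were Cdc6, Mcm7, Rfc5, Rnaseh2a, Rrm2, Rrm2b, Slbp and Tyms, and their effect on the counts was not tested.

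Catalytic subunits of the replicative polymerases were far apart. Pold1, of polymerase δ, had 69.5, 71.9 and 76.8 TPM. Pola1, of polymerase α, had 4.85, 3.67 and 4.13 TPM, and Pole, of polymerase ε, had 2.70, 2.41 and 2.17 TPM. Every library of Pold1 was above every library of the other catalytic subunits. The primase genes lay between, Prim1 at 13.0 ± 0.351 TPM and Prim2 at 6.30 ± 0.829 TPM. Accessory subunits did not follow the low level of Pola1 and Pole, with Pola2 at 64.7 ± 4.35 TPM and Pole2 at 29.4 ± 2.002 TPM. These were not picked by the rule for naming genes and are given because they pair with Pola1 and Pole, after their values were seen.

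In nucleotide supply, the enzyme that breaks down deoxynucleotides was the highest of all 47 genes. Samhd1, a deoxynucleotide triphosphohydrolase known to limit the pool in non-dividing cells, had 240, 210 and 199 TPM. Ribonucleotide reductase makes deoxynucleotides from a large subunit, Rrm1, and a small subunit, Rrm2 in S phase or Rrm2b, a p53 target that serves outside S phase. Rrm1 had 11.4, 11.4 and 10.6 TPM, Rrm2b had 19.4, 20.3 and 18.5 TPM, and Rrm2 had 7.15, 4.38 and 4.89 TPM. Rrm2b was above Rrm2 in every library, by 1.84 ± 0.38 on the log2 scale, a ratio of 3.59 (3.30 to 3.93). Samhd1 exceeded Rrm2 by 5.30 ± 0.25, a ratio of 39.97 (36.8 to 43.5), and Rrm1 exceeded Rrm2 by 1.05 ± 0.35, a ratio of 2.07 (1.89 to 2.26). With principal transcript lengths these ratios were 4.01, 73.7 and 4.51.

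Genes around thymidylate differed in level. Dut, the dUTPase that keeps uracil out of DNA and provides dUMP, had 33.2, 30.5 and 33.7 TPM. Tyms, thymidylate synthase, had 2.58, 2.87 and 2.92 TPM, and Tk1, the S phase thymidine kinase of the cytosol, had 0.906, 0.601 and 0.676 TPM. Dut exceeded Tyms by 3.49 ± 0.14 on the log2 scale, a ratio of 11.5 (10.6 to 12.6), which was 7.41 with principal transcript lengths. Outside the 47 genes, and chosen after their values were seen, the thymidylate kinase gene Dtymk stood at 64.5 ± 3.15 TPM and the mitochondrial thymidine kinase gene Tk2 at 86.0 ± 4.18 TPM. The Tk1 exons sum to 5198 bases against 1440 for its principal transcript, and by that length Tk1 stood at 1.82 ± 0.398 TPM. The Tyms transcript shares stretches of 95% identity or more with 8 other genes, each at most 361 bases long, and its count is uncertain for that reason.

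The remaining genes were kept except for Ung. Rnaseh2a, the catalytic subunit of the ribonuclease that removes ribonucleotides from DNA, stood at 34.2 ± 1.73 TPM, Fen1, the flap nuclease, at 28.6 ± 2.74 TPM, Lig1, the ligase that joins Okazaki fragments, between 21.3 and 24.0 TPM, and Slbp, the binding protein of histone mRNA, between 19.1 and 21.1 TPM. Ung, the glycosylase that removes uracil, stood at 9.37 ± 0.322 TPM. By principal transcript length Slbp was the highest of these genes, at 44.2 TPM, above Rnaseh2a at 27.9 TPM. Of the Fen1 exon bases, 84.2% overlap genes on the opposite strand.

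All 9 pairs given above had the same sign in 3 of 3 libraries. The pairs were chosen with earlier results of these data known, so this agreement is a description and not evidence. An exact permutation test that flips the signs of the 3 differences (two-sided) gave p = 0.25 for each, the least it can give here, and an adjusted p of 0.25 by the Benjamini-Hochberg method over the 9, so no pair could pass 0.05. Along the order of all 47 levels, 24 of 46 neighbours differed in every library and by more than the SD of their difference on average. The order was set by the means of these same libraries, which favours agreement in direction, so this count is a description only.

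None of the 47 genes varied among the libraries beyond genes of their abundance, by edgeR's goodness of fit of an intercept-only model at an adjusted p of 0.05, where 72 of 13498 genes tested did (0.533%). All 47 passed the filter of a mean count of 10. At an unadjusted p under 0.05 the count was also 0 of 47, against 4.10% of all genes. The smallest unadjusted p was 0.0637, for Rrm2 (edgeR, adjusted p = 0.99998), whose log2 CPM was 0.39 above its mean in replicate 2 and lowest in replicate 3, at -0.29. In data simulated for this test over 13498 genes, it recovered 32.0% of genes changed 1.5-fold in 1 library and 69.0% of those changed 2-fold, so differences of that size in single genes could be missed. The changed genes were drawn from all genes tested. Recovery at the low counts of the near-floor genes was not tested apart.

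The spread was wider in genes with few counts. The median coefficient of variation was 4.69% for the 32 kept genes, where counting alone gives 2.67%, and 31.8% for the 5 near-floor genes, where it gives 17.7%. Mcm10 had the widest log2 range, 0.98, with replicate 2 the highest, and a range of 0.01 without it. Gins2 followed with 0.96 and replicate 3 the lowest. The range of Rrm2 was 0.68, and 0.19 without replicate 2. Samhd1, with 75353 counts, had a log2 range of 0.22. Replicate 2 was the highest library for 25 of 47 genes (53.2%) and for 43.4% of the 13498 genes tested. Erythroid markers were also highest in replicate 2, as given above, and B cell markers in replicate 3, and their part in these differences was not tested.

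**Figure D3:**
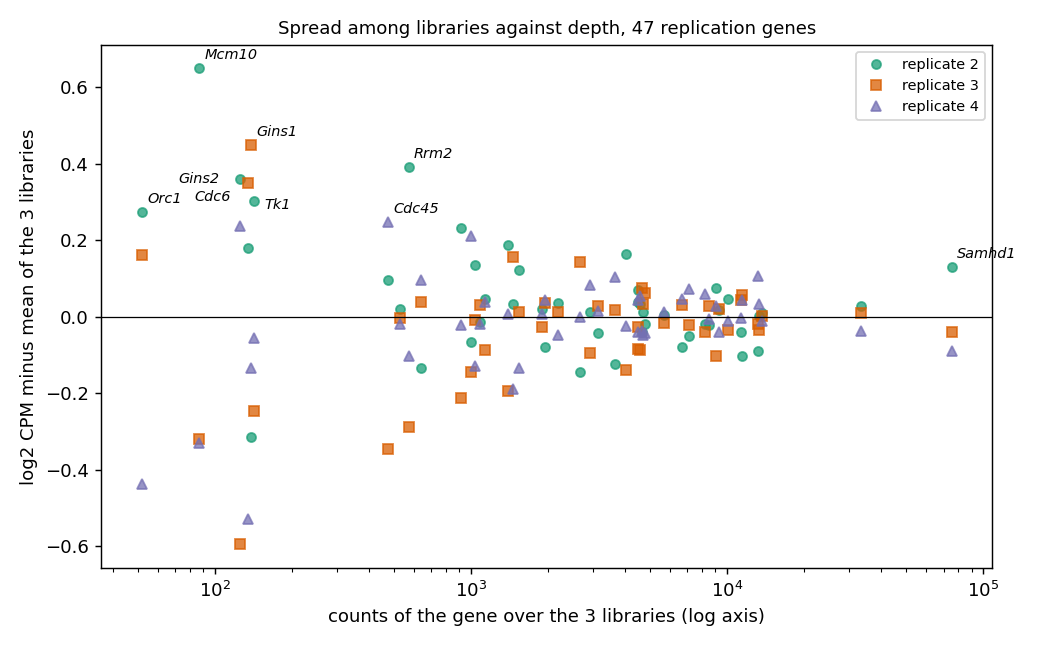
Deviation of each gene's log2 CPM from its mean over the 3 libraries, against the gene's summed counts (log axis), for replicates 2, 3 and 4. The deviations reach 0.65 for Mcm10, which has 87 counts, and past 1000 counts the farthest is Pola1, at most 0.19 from its mean.

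Levels depended on the gene length used. Summed exons were between 1.00 and 3.61 times the principal transcript of GENCODE M21, with a median of 1.49, and 12 of 47 genes had exons over 2 times as long. By principal length 34 genes reached the 10 TPM line in all libraries, and 4 were near the floor. Rfc3, Prim2 and Ung moved above the 10 TPM line, at 12.9, 13.1 and 16.6 TPM, Gins3 moved below it, at 8.32 TPM, and Tk1 left the near-floor genes. Orc1, Cdc6, Mcm10 and Gins2 stayed under 1 TPM in at least 1 library by either length.

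**Figure D4:**
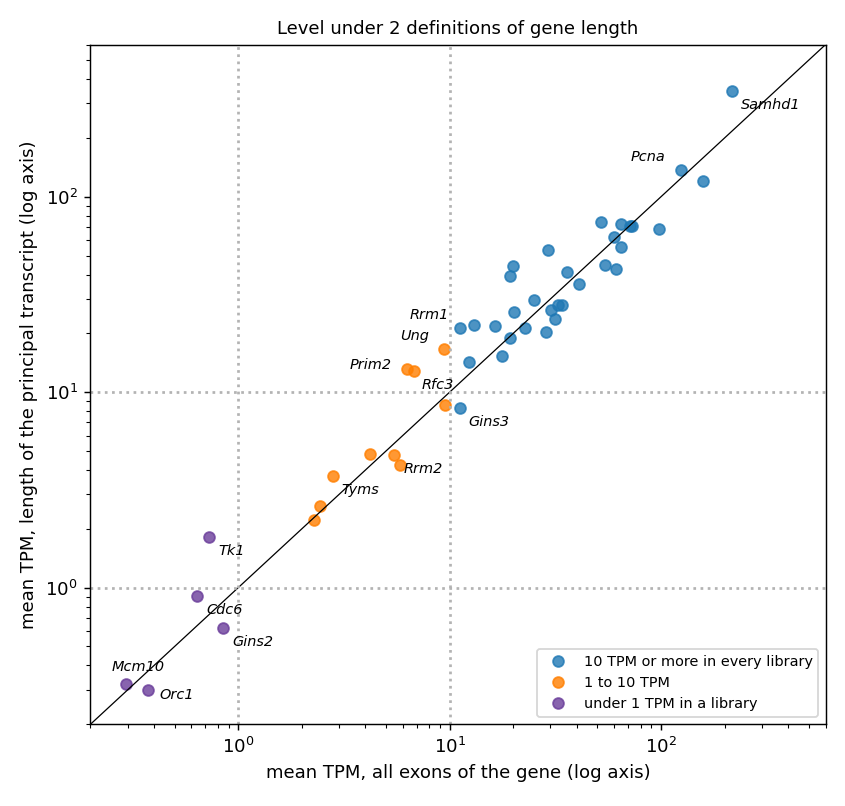
Mean TPM of each gene over the 3 libraries with all exons as its length (horizontal, log axis) and with the principal transcript (vertical, log axis), coloured by level class with all exons, with a line of equality. Tk1 lies at 0.727 TPM by exons and 1.82 TPM by transcript, and Rrm1 at 11.2 and 21.3 TPM.

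Of 14 other origin, firing and fork genes, 12 reached 1 TPM and 8 reached 10 TPM in every library. The MCM-binding protein gene Mcmbp, at 126 ± 4.99 TPM, and Donson, at 60.7 ± 5.38 TPM, were highest. Lowest were Ticrr, which encodes the firing factor treslin, and Clspn, which encodes the checkpoint adaptor claspin. They stood at 0.428 ± 0.0473 TPM and 0.348 ± 0.138 TPM. By principal transcript length Topbp1, at 51.4 TPM, was above Donson, at 50.4 TPM. Of 17 other polymerase and clamp genes, 14 were at 1 TPM or more, from the topoisomerase gene Top2b at 196 ± 5.71 TPM and the polymerase δ subunit gene Pold4 at 122 ± 3.54 TPM to the nuclease genes Dna2 at 0.931 ± 0.222 TPM and Exo1 at 0.505 ± 0.111 TPM. By principal transcript length Pole4 was the highest of the 17, at 90.5 TPM, and Top2b stood at 83.6 TPM, below Pold4 at 84.5 TPM.

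All 19 other nucleotide genes reached 1 TPM in every library. Shmt2, which supplies folate units in mitochondria, between 128 and 149 TPM, and the purine synthesis gene Gart, at 121 ± 3.40 TPM, were highest. The deaminase gene Dctd, at 4.83 ± 0.346 TPM, was among the lowest. By principal transcript length Atic was the highest of the 19, at 138 TPM, above Shmt2 at 132 TPM. Gart, at 95.2 TPM by that length, was below Impdh2, Dtymk and Dguok. All 9 chromatin genes reached 1 TPM in every library too. Highest were Ssrp1, a subunit of the FACT histone chaperone, at 215 ± 2.32 TPM and the maintenance methyltransferase gene Dnmt1 at 143 ± 4.87 TPM. Lowest were Uhrf1 at 7.07 ± 0.340 TPM and the histone chaperone gene Chaf1a at 1.77 ± 0.916 TPM. Chaf1a had 2.82 TPM in replicate 2 and 1.36 and 1.14 TPM in replicates 3 and 4. The counted exons of Chaf1a sum to 3308 bases against 5535 for its principal transcript, and by that length its mean was 0.735 TPM. Of 13 mitosis genes 9 were at 1 TPM or more and none reached 10 TPM in every library. Their median was 1.79 ± 0.357 TPM, where that of the 47 replication genes was 20.2 ± 0.273 TPM. Cdc20, at 9.36 ± 0.443 TPM, and Plk1, at 4.07 ± 1.14 TPM, were highest. Ccnb1, at 0.573 ± 0.151 TPM, and Bub1, at 0.414 ± 0.0349 TPM, were lowest. By principal transcript length Birc5, at 3.55 TPM, was above Plk1, at 2.82 TPM. Cdk1, at 0.538 TPM, was below Ccnb1, at 0.673 TPM, by that length.

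By position, 7 of 47 replication genes had the start of a protein-coding gene on the opposite strand within 1000 bases upstream, against 6.86% of protein-coding genes. They were Mcm4, Orc1, Orc3, Gins1, Pole, Rpa1 and Rpa3. Orc1 starts 87 bases from Prpf38a, a splicing factor gene at 18.3 ± 0.484 TPM, and Pole starts 120 bases from Pxmp2, at 0.556 ± 0.336 TPM. Distances rest on the outermost annotated ends.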

How the data were processed

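Total RNA of 3 mouse T cell libraries was sequenced. Per the file headers, the authors made the deposited counts of read pairs per gene with featureCounts 1.4.6-p4 over exons of GENCODE M13, with both ends aligned and reverse strand counting, and the assembly is mm10 per the labels. The headers set no option for reads aligned to several places. For the aligner's settings the status is: not given in the sources used here. Gene symbols were looked up by unversioned Ensembl identifier. TPM was computed here from counts and deposited exon lengths, over all genes. Principal transcripts (APPRIS tag, GENCODE M21, mm10) gave the alternative length, which was added after the data were seen.

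To test whether a gene varied between libraries, edgeR 4.0.16 (R 4.3.3) was used (intercept-only fit, TMM, trended dispersion, mean count of 10 or more, Benjamini-Hochberg over all genes tested), since a quasi-likelihood test of a coefficient needs a further group. It was checked on simulated data. Pairs used a pseudocount of 0.1. Copies were sought with BLAST 2.17.0 at 95% identity over 200 bases. Python 3.11.15, numpy 2.4.6, scipy 1.17.1 and pandas 2.3.3 were used. The genes named were all members and, of each further list, the 2 highest and 2 lowest by mean TPM, except for a gene that is not reported here. The members, pairs and lists were chosen with earlier results of these data known.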

Additional observations from a re-analysis of the deposited data

How the results depend on the processing

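The counts of genes at 1 and at 10 TPM or more kept within 1.5 times their value under every threshold, scaling, length and left-out replicate tried, from 41 to 46 and from 22 to 36 genes. The count under 1 TPM in at least 1 library was 3 at a threshold of 0.5 TPM, by construction of a lower line, and between 4 and 6 otherwise. The median over the 47 genes was 20.95 TPM when genes under 200 bases were left out of the scaling, 21.9 TPM over protein-coding genes and 22.9 TPM with principal transcript lengths, each by construction of the scale or length used. All 9 pairs, chosen with earlier results known, kept their sign under every pseudocount, scaling, length and left-out replicate tried. No member passed edgeR's adjusted p of 0.05 in any setting run. With a common dispersion 5 members, Mcm10, Cdc45, Gins1, Gins2 and Rrm2, had an unadjusted p under 0.05, with a smallest adjusted p of 0.176, and without replicate 4 only Rrm2 did. Over all genes, 72 were called. A common dispersion gave 312, and leaving out replicates 2, 3 and 4 gave 35, 39 and 46. Levels on the TMM-scaled CPM scale were not run as a separate setting. No paired analysis was possible because there is a single group. Orc1 and Mcm10 had the fewest pooled counts, 52 and 87. The coefficient of variation of Orc1 was 28.9%, where counting alone gives 27.8%. That of Mcm10 was 46.8%, where counting alone gives 21.2%.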
